A study of Mus musculus with 8 samples.

Results

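The 9 genes described here, Lgals2, Dus3l, S100a11, Dppa2, Sprr2a1, Pdlim5, Cenpb, Trim44 and Sec14l1, were chosen on measured values: their main probe set stood far apart between the rabbit IgG precipitate and the input or the CPEB precipitates in both pools of striatum. They are 9 of 17097 genes on the array and hold 18 of its 45101 probe sets. All 9 main probe sets passed the filter on low values, a mean over the arrays above 4.23 on the log2 scale, as did 11345 genes in all. Single arrays could still lie below 4.23. These were Pdlim5 in both inputs (3.32 in HD, 3.93 in WT) and with CPEB1 in HD (3.92). Trim44 in HD input (3.33), and Cenpb (4.09) and Dppa2 (4.11) in WT input, lay below it too. Differences of these genes from input rest in part on such low values. A main probe set is the one with the highest mean over the arrays among those annotated to that gene alone.

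The tissue was striatum from male HD mice and male WT mice, 7 to 8 months of age, combined into 1 pool per genotype; the design text speaks of 4 mice. It was crosslinked with formaldehyde, lysed and cleared on beads that carried no antibody. From each pool came 4 fractions with 1 array each: RNA brought down by an antibody to CPEB1, by one to CPEB4 or by rabbit IgG, and the input, an aliquot of the cleared lysate. The labels do not say what HD stands for or how many mice entered each pool. Because the tissue was combined per genotype, the fractions of a genotype share a single pool of tissue. All 8 arrays carried cDNA amplified over 27 cycles, 8 µg per array.

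RNA immunoprecipitation (RIP) recovers a protein with an antibody together with the RNA bound to it. CPEB1 and CPEB4 are cytoplasmic polyadenylation element binding proteins, which bind the ends of mRNAs and control the length of their poly(A) tails and their translation, in neurons among other cells. The IgG of an animal that was not immunised against the protein serves as the control for RNA that stays on beads and antibody without it. A level over IgG and a level over input therefore answer different questions.

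Values are log2 summaries of a probe set. The median probe set of an array stood at 4.03 to 4.28. The arrays were less alike in spread. The SD over probe sets in HD and WT was 1.36 and 1.46 with IgG, and 1.69 and 1.80 with CPEB4. It was 1.44 and 1.71 with CPEB1, and 1.55 and 1.43 in input. The part of this in differences between fractions was not tested apart from the other normalizations given below. Across the 11345 genes, which are not independent replicates, the arrays of the HD and WT pools correlated at r = 0.899 for CPEB4, 0.813 for CPEB1, 0.778 for IgG and 0.792 for input. Several markers of the medium spiny neuron, the main neuron of striatum, were high in the HD and WT inputs, with 10.30 and 11.07 for Ppp1r1b and 11.34 and 12.20 for Pde10a. Other markers were low there, with 4.47 and 4.53 for Drd1, 5.05 and 4.56 for Drd2, and 3.92 and 3.22 for Tac1, which lies below the filter.

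The name under which the genes were gathered, a background set by IgG, fits them unequally. Only 5 of the 9 had their highest values on the IgG arrays (4 with the mean of a gene's sets, 6 with quantile normalization). Of the others, Pdlim5 was high with IgG and CPEB4 alike, and Sec14l1 was lowest with IgG. Cenpb and Trim44 were above input in every precipitate, with IgG between input and CPEB. They are taken up before Sec14l1. The 9 genes are described below, those highest with IgG first and Pdlim5 next.

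Lgals2 encodes galectin-2, a lectin that binds galactose-containing sugars. Its main probe set read 5.78 (HD) and 5.62 (WT) with CPEB1, 5.14 and 4.81 with CPEB4, 10.58 and 9.76 with IgG, and 5.50 and 5.28 in input. The IgG arrays lay far above all the others, and the other 3 fractions lay within about 1 log2 unit of each other. IgG minus input was 4.78 ± 0.43 (SD, n = 2 pools), a 27.5-fold difference, but 2.60 with the mean of its 2 probe sets.

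Dus3l encodes a dihydrouridine synthase, an enzyme that modifies uridines of tRNA. It read 8.52 and 8.00 with CPEB1 in HD and WT, 7.69 and 7.13 with CPEB4, 9.93 and 9.89 with IgG, and 8.89 and 7.92 in input. It was thus well detected in every fraction, with IgG on top and CPEB4 at the bottom. IgG minus input was 1.503 ± 0.66 (SD, n = 2 pools), with 1.03 in HD and 1.97 in WT, and 0.69 with the mean of its 2 probe sets.

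S100a11 encodes a small calcium-binding protein of the S100 family. In HD and WT it read 5.31 and 4.90 with CPEB1, 4.80 and 4.64 with CPEB4, 6.72 and 7.13 with IgG, and 4.96 and 5.56 in input. The CPEB1 and input values overlapped. The difference of IgG from input was 1.66 ± 0.14 (SD, n = 2 pools), the smallest spread between the pools among the 9 genes for that difference.

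Dppa2 encodes a chromatin-associated factor of pluripotent cells and the early embryo. In HD and WT it read 5.68 and 5.32 with CPEB1, 4.95 and 4.37 with CPEB4, 7.01 and 5.99 with IgG, and 4.64 and 4.11 in input. The IgG values were the highest, though IgG in WT lay only a little above CPEB1 in HD. CPEB1 lay above both CPEB4 and input, whose values overlapped. Over input, IgG stood at 2.13 ± 0.34 (SD, n = 2 pools).

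Sprr2a1 encodes a small proline-rich protein of the cornified envelope, the tough shell of skin cells that is crosslinked as they mature. It read 8.00 in HD and 4.79 in WT with CPEB1, 8.86 and 4.29 with CPEB4, 9.69 and 11.11 with IgG, and 4.76 and 5.51 in input. IgG was again on top in both pools. In the HD pool the CPEB precipitates came within 1.69 (CPEB1) and 0.83 (CPEB4) of IgG, whereas in the WT pool they lay below input. Against input the IgG level was higher by 5.27 ± 0.48 (SD, n = 2 pools), with 4.93 in HD and 5.61 in WT. The model gave 3.39 without the IgG array of WT and 7.16 without that of HD. Its pool term then draws on the gap between HD and WT in the other fractions, so these values are not those of a pool. The differences from IgG had wide spreads, -4.00 ± 3.28 for CPEB1 and -3.83 ± 4.24 for CPEB4.

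**Figure D1:**
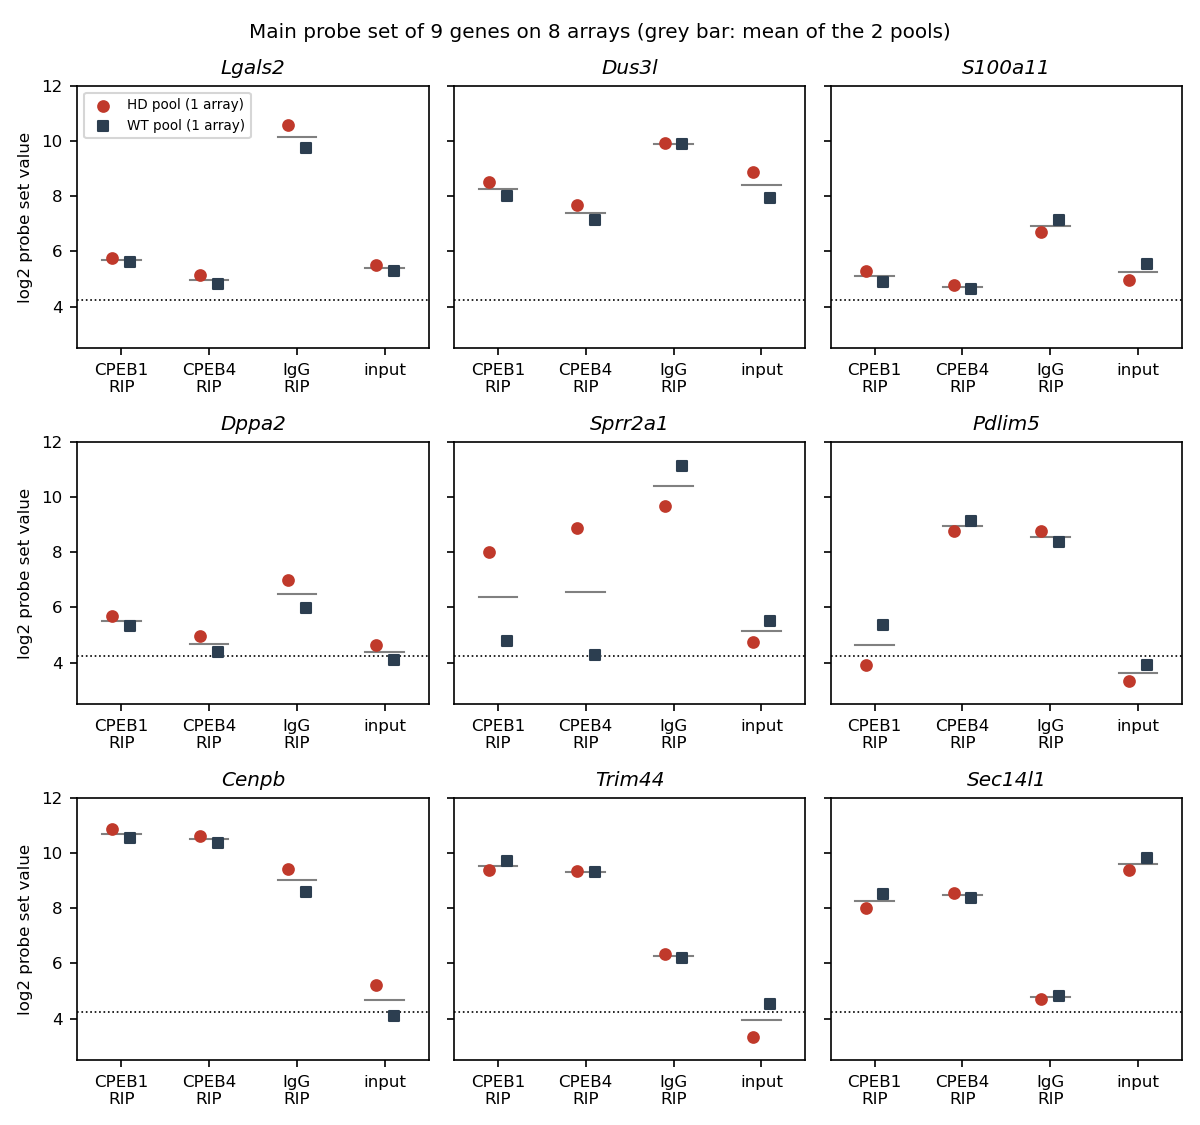
Log2 value of the main probe set of each of the 9 genes in the CPEB1, CPEB4 and IgG precipitates and in input, with the HD pool as circles and the WT pool as squares (1 array each), the mean of the pools as grey bars and the filter on low values, 4.23, as a dotted line. The IgG points are the highest for Lgals2, Dus3l, S100a11, Dppa2 and Sprr2a1 and the lowest for Sec14l1, and Sprr2a1 splits by pool with CPEB1 and CPEB4.

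These 5 genes were among the 458 of 11345 genes, 4.04%, whose value on both IgG arrays exceeded that on all other 6 arrays. Because they were chosen on IgG values, that share is a background and their count of 5 of 9 is no result. Over the 8 arrays, the 10 pairs among them correlated at r = 0.69 to 0.94, a description that rests on the shared IgG arrays. Whether fewer cells of a type or less RNA per cell lies behind a difference between pools cannot be told apart in such bulk lysates.

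Pdlim5 encodes a PDZ and LIM domain protein that tethers kinases to the actin cytoskeleton. Its main probe set read 3.92 and 5.37 with CPEB1 in HD and WT, 8.78 and 9.15 with CPEB4, 8.76 and 8.38 with IgG, and 3.32 and 3.93 in input. CPEB4 and IgG were together high, CPEB1 and input together low, with CPEB1 in WT the highest of the low arrays. CPEB4 minus input was 5.34 ± 0.17 (SD, n = 2 pools), but CPEB4 minus IgG was only 0.39 ± 0.54, and it turned negative after quantile normalization (-0.66). CPEB1 minus IgG was -3.92 ± 1.30, and IgG minus input was 4.95 ± 0.71, or 1.76 with the mean of its probe sets.

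Cenpb encodes the protein that binds the CENP-B box of centromeric DNA. Its values were 10.87 and 10.54 with CPEB1 in HD and WT, 10.63 and 10.38 with CPEB4, 9.42 and 8.60 with IgG, and 5.23 and 4.09 in input. All 6 precipitates lay above the inputs, and the 4 CPEB arrays above the IgG arrays. The CPEB1 level was 6.04 ± 0.58 above input and 1.69 ± 0.35 above IgG (SD, n = 2 pools). The CPEB4 level was 5.84 ± 0.63 above input and 1.49 ± 0.40 above IgG. Over IgG the values shrank with the scaling, to 1.004 (CPEB1) and 0.47 (CPEB4) with cyclic loess and to 1.12 and 0.77 with quantile normalization. IgG minus input was 4.35 ± 0.23, the larger share of each difference from input on the log2 scale.

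Trim44 encodes a tripartite motif protein with a zinc finger of the kind found in ubiquitin-specific proteases. In HD and WT it read 9.40 and 9.70 with CPEB1, 9.34 and 9.33 with CPEB4, 6.35 and 6.20 with IgG, and 3.33 and 4.55 in input. The order of fractions was that of Cenpb, with no overlap between CPEB, IgG and input arrays. CPEB1 was 5.61 ± 0.65 above input and 3.28 ± 0.31 above IgG (SD, n = 2 pools). CPEB4 was 5.39 ± 0.87 above input and 3.06 ± 0.10 above IgG, and IgG minus input was 2.34 ± 0.97, or 0.88 with the mean of its probe sets. The values over IgG shrank here too, to 2.85 (CPEB1) and 2.51 (CPEB4) with cyclic loess. They were 2.77 and 2.15 with quantile normalization, and 2.18 and 2.38 with the mean of its probe sets. The precipitates of 491 genes, 4.33% of those tested, lay above both inputs on all 6 arrays, Cenpb and Trim44 among them, a pattern that the choice of the members used.

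Sec14l1 encodes a protein with a SEC14 lipid-binding domain. It read 8.02 and 8.53 with CPEB1 in HD and WT, 8.55 and 8.39 with CPEB4, 4.71 and 4.82 with IgG, and 9.40 and 9.84 in input. Input was highest, the CPEB precipitates overlapped each other below it, and IgG was far below. IgG minus input was -4.85 ± 0.23 (SD, n = 2 pools). CPEB1 minus IgG was 3.505 ± 0.29 and CPEB4 minus IgG 3.70 ± 0.19, yet against input the same levels gave -1.35 ± 0.05 and -1.15 ± 0.42. Over IgG they were 2.99 (CPEB1) and 2.98 (CPEB4) with cyclic loess, and 3.44 and 3.09 with quantile normalization. Both IgG arrays were below the other 6 for 786 of 11345 genes, 6.93%, and Sec14l1 was the only member among them.

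**Figure D2:**
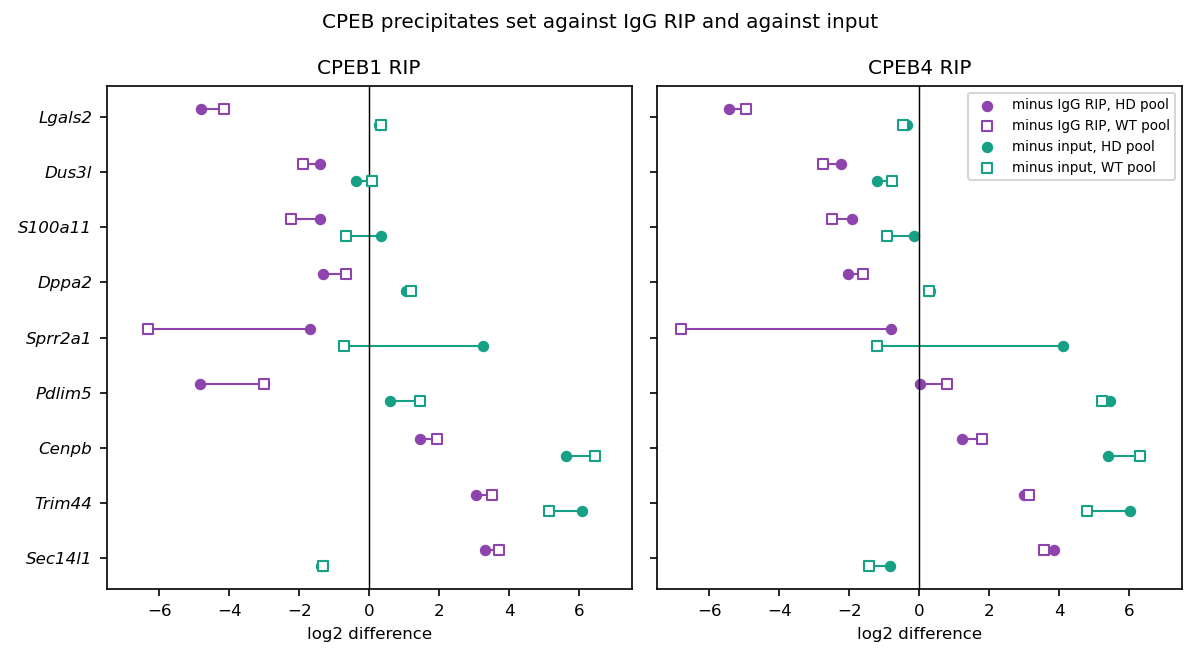
Log2 difference of the CPEB1 precipitate (left) and the CPEB4 precipitate (right) from IgG (purple) and from input (green) for the 9 genes, with HD as filled circles, WT as open squares and a line joining the pools. For Sec14l1 the difference is positive against IgG and negative against input, and for Pdlim5 with CPEB4 it is near 0 against IgG and above 5 against input.

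Set beside each other, the differences of each precipitate from IgG and from input share the CPEB arrays, so they are given as values. CPEB1 minus IgG was negative for 6 of the 9 genes and CPEB4 minus IgG for 5. For Lgals2 the values against IgG were -4.47 ± 0.47 with CPEB1 and -5.19 ± 0.34 with CPEB4, whereas against input they were 0.31 ± 0.05 and -0.41 ± 0.08. Against input, Dus3l had -0.14 ± 0.32 with CPEB1 and -0.999 ± 0.29 with CPEB4. S100a11 had -0.16 ± 0.71 and -0.54 ± 0.55 against input, neither larger than its spread between pools. Dppa2 lay above input with CPEB1, by 1.13 ± 0.12, and by 0.29 ± 0.03 with CPEB4. All 4 of these genes stood below IgG with either antibody, and on average none was more than 1.13 from input. With the mean of its probe sets in place of the main set, CPEB1 minus IgG of Dus3l was 0.39.

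For the contrasts that chose the members, the call rates over all genes are background alone. By limma at a Benjamini-Hochberg adjusted p under 0.05, 3 of 11345 genes, 0.0264%, differed between IgG and input, 2 higher and 1 lower, with 1106 at an unadjusted p under 0.05 and 0 called when any 1 array was left out. Between CPEB4 and IgG there were 269, 2.37%, of which 264 were higher and 5 lower, but 0 without either array of CPEB4, IgG or input and 9 after quantile normalization. Between CPEB1 and IgG there were 0, or 0%, with 836 at an unadjusted p under 0.05 and a smallest adjusted p of 0.121.

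The array carries 9 further probe sets for 6 of the genes, none for S100a11, Cenpb and Sec14l1. Affymetrix marks with a_at a set whose probes match transcripts of the same gene, with s_at a set shared between transcripts, and with x_at a set in which some probes may bind other transcripts. Of the 9 main sets 5 are plain sets, 3 are a_at sets and 1, that of Pdlim5, is an x_at set. Among the genes tested, 76.7% have a plain main set, 16.1% an a_at set and 2.64% an x_at set.

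The further probe sets mostly did not follow the main ones. That of Lgals2 (1417079_PM_s_at) read 5.17 and 4.64 with CPEB1 in HD and WT, 4.74 and 4.07 with CPEB4, 5.49 and 5.37 with IgG, and 4.71 and 5.30 in input. IgG was still highest, the only such case among the 9, but by 0.07 over the nearest array in WT. That of Dus3l (1459805_PM_x_at) was at 3.01 to 3.39 on 6 arrays and at 7.95 with CPEB1 and 4.84 with CPEB4 in WT. That of Dppa2 lay at 2.72 to 3.20 throughout, under the filter.

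The second set for Sprr2a1 (1439016_PM_x_at) is annotated to Sprr2a3 as well, so it cannot be given to either gene. In HD and WT it read 7.88 and 5.93 with CPEB1, 6.78 and 5.72 with CPEB4, 6.54 and 7.53 with IgG, and 6.14 and 5.89 in input. The IgG value was highest in WT only, and in HD the CPEB1 value was highest. The Sprr2a genes are close copies of each other, so transcripts of one may bind probes of another.

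For Pdlim5 a second set (1422861_PM_s_at) followed the main one, with 3.97 and 4.43 with CPEB1 in HD and WT, 6.64 and 7.62 with CPEB4, 7.04 and 6.81 with IgG, and 3.02 and 3.01 in input. CPEB4 and IgG were again high, and CPEB1 and input low, without overlap. The other 3 did not show that split: 1421413_PM_a_at ranged over 4.61 to 6.73, highest in HD input, 1422863_PM_s_at over 4.396 to 5.68, and 1422862_PM_at over 2.75 to 3.38. The second set of Trim44 (1421870_PM_at) read 5.21 and 7.78 with CPEB1 in HD and WT, 6.49 and 7.75 with CPEB4, 5.45 and 5.37 with IgG, and 6.80 and 5.16 in input. In WT it kept the order of the main set, while in HD input was the highest.

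**Figure D3:**
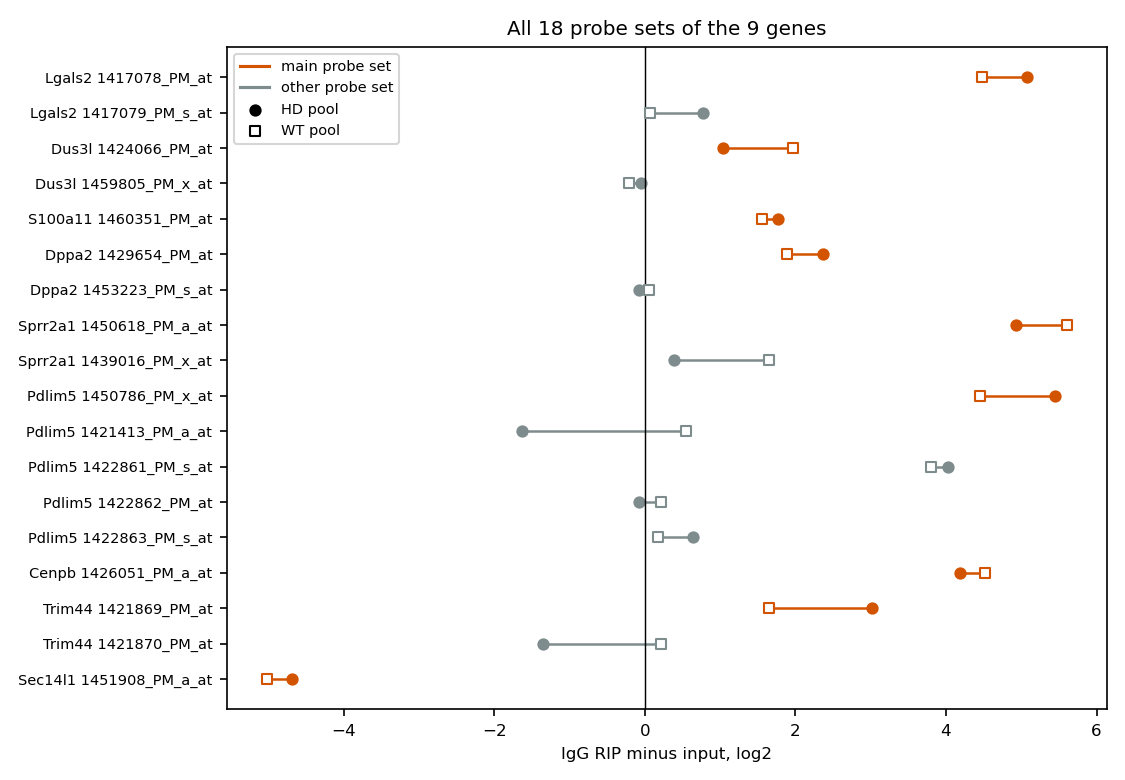
IgG minus input on the log2 scale for all 18 probe sets of the 9 genes, main sets in orange and further sets in grey, HD as filled circles and WT as open squares. Among the further sets only 1422861_PM_s_at of Pdlim5 is past 3 in both pools, as its main set is.

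CPEB1 was then set against CPEB4, a contrast that the rule for the genes does not name, although the rule used the CPEB arrays. The members' values in it are therefore not independent of their choice. Over all genes 16 of 11345, 0.141%, passed at an adjusted p under 0.05 in limma, 0 higher and 16 lower with CPEB1, and 0 when any 1 array was left out. Before adjustment 1740 genes lay under 0.05. Of the 9 members 0 passed, and 4 lay under 0.05 before adjustment, counts that are no test of genes chosen on the same arrays. The members' median difference was 0.22, beside 0.21 for all genes tested, and 6 of 9 were positive.

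The largest difference was that of Pdlim5, CPEB1 minus CPEB4 of -4.32 ± 0.47 (SE; 95% interval -5.49 to -3.14), 19.9-fold lower with CPEB1. It is given as a description, since this gene's CPEB1 minus IgG difference of -3.92 was among the values that chose it. Its pools gave -4.85 (HD) and -3.78 (WT). The second set that followed the main one gave -2.67 in HD and -3.19 in WT. The mean of all its probe sets gave -1.46.

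The other members are described in the same way. Dus3l had a difference of 0.85 ± 0.31 (SE), Dppa2 of 0.84 ± 0.28 and Lgals2 of 0.73 ± 0.28. Each was positive in both pools, and none passed. S100a11 had 0.39 ± 0.34. The intervals of Cenpb (-0.62 to 1.03), Trim44 (-0.80 to 1.24) and Sec14l1 (-0.92 to 0.53) include 0, and together they reach from -0.92 to 1.24. Sprr2a1 had -0.18 ± 1.58 with an interval of -4.18 to 3.83, so its difference was hardly measured.

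**Figure D4:**
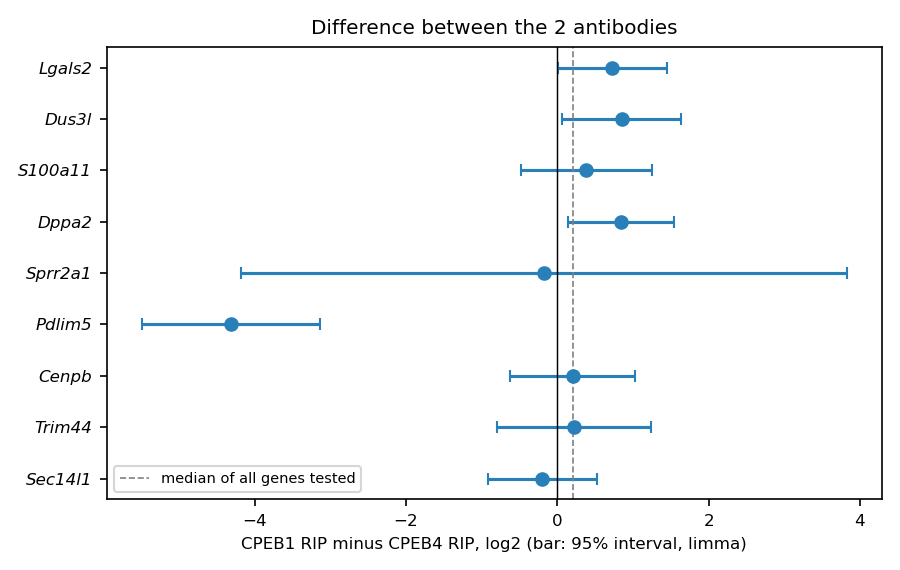
CPEB1 minus CPEB4 on the log2 scale for the 9 genes, points for the limma estimate and bars for the 95% interval, with the median of all genes tested, 0.21, as a dashed line. Pdlim5, at -4.32, lies apart from the others, and the interval of Sprr2a1 spans -4.18 to 3.83.

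HD and WT were compared within each fraction as values alone, since each rests on 1 array. Past a log2 difference of 1 either way were 2 of 9 members with CPEB1 (21.2% of all genes), 1 of 9 with CPEB4 (16.2%), 2 of 9 with IgG (15.4%) and 2 of 9 in input (15.7%). Sprr2a1 accounted for 3 of these 7, with HD minus WT at 3.21 with CPEB1, 4.58 with CPEB4 and -1.43 with IgG. The other 4 were Pdlim5 with CPEB1 (-1.45), Dppa2 with IgG (1.02), and Cenpb (1.15) and Trim44 (-1.22) in input.

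The median absolute difference of the members was 0.40 with CPEB1, 0.33 with CPEB4, 0.40 with IgG and 0.61 in input. For all genes it was 0.42 with CPEB1, 0.37 with CPEB4, 0.30 with IgG and 0.36 in input. HD minus WT of Lgals2 was 0.15 with CPEB1, 0.33 with CPEB4, 0.82 with IgG and 0.22 in input. Markers of some cell types moved between the pools too, in some fractions. The 9 medium spiny neuron markers averaged 7.38 in HD and 8.92 in WT with CPEB1, 7.92 and 8.91 with CPEB4, 6.93 and 8.53 with IgG, and 7.58 and 7.68 in input. The 7 oligodendrocyte markers averaged 6.34 in HD and 7.93 in WT with IgG, against 7.73 and 7.53 in input. With CPEB1 they averaged 7.33 and 7.54, and with CPEB4 8.32 and 8.22. In the IgG arrays Mobp (5.19 and 9.14) and Cnp (6.19 and 10.69) differed most, while Mag went the other way (7.14 and 6.68). The part of cell types in the members' differences was not tested.

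**Figure D5:**
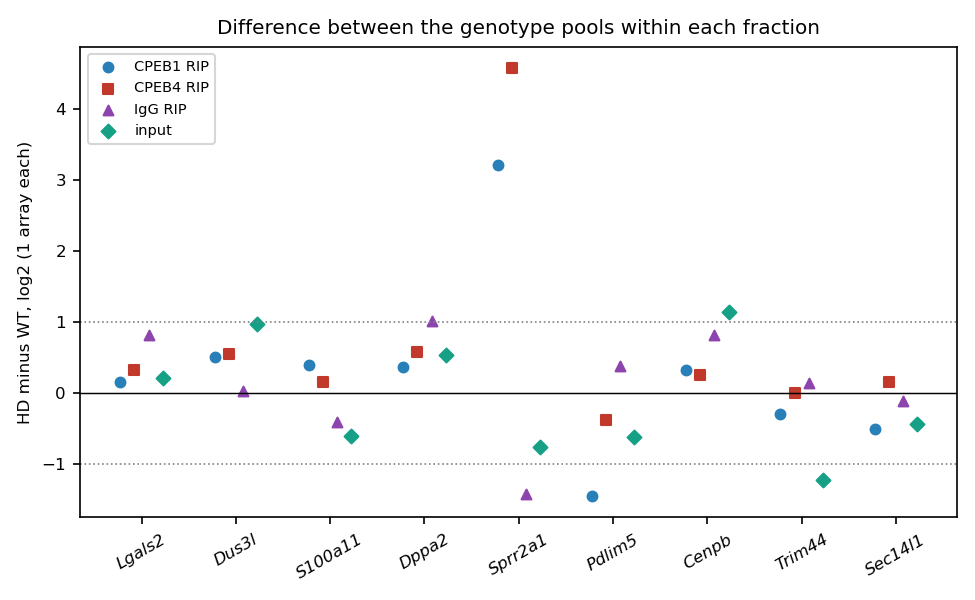
HD minus WT on the log2 scale for the 9 genes within the CPEB1, CPEB4 and IgG precipitates and input (1 array each), with dotted lines at a difference of 1 either way. Sprr2a1 spreads most, at 3.21 with CPEB1, 4.58 with CPEB4 and -1.43 with IgG.

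For each gene the other genes with the most similar profile over the 8 arrays were ranked by Pearson's r, among genes that varied at least at a comparable scale. The points share 4 fractions of the same lysates, so r is a description. Lgals2 was closest to Wfdc18 (0.93) and Xbp1 (0.92), which drives the unfolded protein response and was also nearest to Sprr2a1 (0.84), ahead of Clmn (0.82). Dus3l was closest to Lmna, a nuclear lamin (0.98), and Entpd5 (0.93), and S100a11 to the pseudogene Fut4-ps1 (0.98) and Ido2 (0.97). Dppa2 was closest to Lce1i, a late cornified envelope gene (0.97), and Car10 (0.95).

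The genes that were not highest with IgG had other partners. Pdlim5 was closest to Zc3h11a (0.93) and to Cs, the citrate synthase (0.90). Cenpb was closest to Atp2b1, a plasma membrane calcium pump (0.97), and Eef1b2, a translation elongation factor subunit (0.97). Trim44 was closest to Evl (0.96) and Ap2b1, an adaptor subunit of clathrin coats (0.96), and Sec14l1 to Cds2 (0.99), which makes CDP-diacylglycerol, and Cnih2 (0.99), an auxiliary protein of AMPA receptors. Among the members, Cenpb and Trim44 correlated at 0.91, and Lgals2 and Sec14l1 ran opposite, at -0.95.

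Relatives of the 9 genes were taken from lists of galectins, S100 proteins, cornified envelope proteins, DPPA and early germline genes, PDZ-LIM proteins, centromere proteins, SEC14-like proteins, dihydrouridine synthases and TRIM proteins. Besides the members, 70 relatives were tested. Both IgG arrays were highest for 6 of them (S100a5, Sprr1a, Sprr2d, Sprr2k, Cenpe and Clvs2), beside 4.04% of all genes, and lowest for 3 (Lgals1, Trim8 and Trim45), beside 6.93%. For CPEB1 minus CPEB4 the median of the 70 relatives was 0.43, beside 0.22 for the 9 members and 0.21 for all genes tested. No enrichment of a family was tested.

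The differences of the 3 Sprr genes were small next to that of Sprr2a1. Sprr2k read 6.42 and 6.14 with CPEB1 in HD and WT, 5.88 and 5.51 with CPEB4, 6.91 and 6.46 with IgG, and 6.35 and 6.13 in input. IgG minus input was 0.44 ± 0.24 for Sprr2k, 0.57 ± 0.28 for Sprr1a and 0.34 ± 0.25 for Sprr2d (SE of the limma model).

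None of the 70 relatives passed the limma test of IgG against input, with 11 at an unadjusted p under 0.05, beside 1106 of the 11345 genes. Their median was -0.17 beside -0.11 for all genes. With CPEB4 over IgG 1 of 70 passed, beside 2.37% of all genes: Lgalsl, a galectin-like gene, at 1.72 ± 0.25 (SE, adjusted p = 0.0431). Before adjustment 18 of the 70 lay under 0.05, beside 2598 of the 11345. That call was lost without either array of CPEB4, IgG or input. Lgalsl read 5.93 and 6.37 with CPEB4 in HD and WT, and 4.23 and 4.62 with IgG. Its relative Lgals2 ran the other way.

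The largest IgG minus input differences of the families were those of Dus1l, a dihydrouridine synthase like Dus3l, at 2.42 ± 0.57 (SE, adjusted p = 0.349), Trim2 at 2.44 ± 0.84 (adjusted p = 0.474) and S100a1 at 2.21 ± 0.68 (adjusted p = 0.454), by limma. Dus1l read 10.30 and 7.84 with IgG in HD and WT, against 6.76 and 6.54 in input. Its IgG values split by pool where those of Dus3l did not. Lgals1 had -1.83 ± 0.75, Lor -1.45 ± 0.53, Pdlim7 -1.05 ± 0.30, Clvs2 1.04 ± 0.27, Cenpo -0.87 ± 0.33 and Pou5f1 -0.42 ± 0.40, and none of these passed.

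Galectin-2 and the Sprr proteins are known from gut and skin, so markers of tissues and cells that could carry into the pools were read beside the members. The 10 epidermis markers averaged 4.92 and 4.68 with IgG in HD and WT, against 5.05 and 5.45 in input. IgG was highest for 0 of these 10, beside 4.04% of all genes tested, and 3 of them lay under the filter. Of the 6 cornified envelope relatives tested, 3 were highest on both IgG arrays, beside the same 4.04%. The margins were small, with Sprr2k at 6.46 with IgG in WT and 6.42 with CPEB1 in HD. The median IgG minus input of the 6 was 0.11. The 7 intestinal markers averaged 4.50 and 4.66 with IgG, against 4.57 and 4.64 in input. Of the 7, 1, Vil1, was highest on both IgG arrays, at 3.75 in HD and 4.63 in WT. Under the filter lay 3 of the 7, Vil1 among them. The 6 markers of B and plasma cells averaged 4.82 and 4.75 with IgG, against 4.73 and 4.76 in input, with 0 of 6 highest and 2 under the filter. Lists this short cannot set a count of 0 or 1 apart from a share of 4.04%. The part of these tissues and cells in the values of Lgals2 and Sprr2a1 was not tested.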

How the data were processed

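The deposited values are on the log2 scale, 1 per probe set, made by the authors with RMA, per the submitters' processing notes. RMA corrects the background, normalizes and summarises the probes of each set. The sources used here do not give its version or say if it was run on the 8 arrays at once. The values were used without further scaling. Of 45101 probe sets, 28898 had 1 gene symbol, 551 several and 15652 none, and 28689 were matched through the RefSeq gene table (GRCm38.p6). No coordinates are printed, since the sources used here name no build for the array's annotation. Each gene was read by its single-symbol probe set of highest mean, with all probe sets of the 9 genes read too.

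The comparisons of fractions used limma 3.58.1 under R 4.3.3 over all 8 arrays, two-sided, with Benjamini-Hochberg adjustment over 11345 genes. The genotype pool was a block, leaving 3 residual degrees of freedom, and the prior added 2.29. Pools stood in place of replicates. The spread behind a p-value was what remained over all 4 fractions after fraction and pool were fitted, with the prior added. It is therefore not the spread of that difference alone between the pools. The number of arrays limits the precision. The code was tested on simulated data.

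Members and gene lists were chosen with earlier results of these data known. The genes named were all members, the 2 tested genes of highest r with each, among genes with an SD of at least 50% of the member's, the relative of largest IgG minus input difference per family and any that passed a test; genes with IgG highest or lowest were named after their values were seen. Alternatives were other filters, probe set means, normalizations, no block, leaving out each array, and fold thresholds.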

Additional observations from a re-analysis of the deposited data

Results flagged for a closer look

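For 4 probe sets a difference ran in opposite directions in the HD and WT pools, by at least 1 each way, on 1 array per value. None of these differences between the pools was tested. Sprr2a1 (1450618_PM_a_at) had CPEB4 minus input at 4.11 in HD and -1.22 in WT. The set annotated to both Sprr2a3 and Sprr2a1 (1439016_PM_x_at) had CPEB1 minus IgG at 1.34 in HD and -1.61 in WT. For Pdlim5, the set 1421413_PM_a_at had CPEB1 minus input at -2.13 in HD and 1.62 in WT. For Trim44, the set 1421870_PM_at had CPEB1 minus input at -1.58 in HD and 2.62 in WT.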

How the results depend on the processing

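Genes called between CPEB1 and CPEB4 numbered 16. They were 0 with a 75th percentile filter, 1 with each gene's probe sets averaged, 61 with cyclic loess, 1 with quantile normalization, 26 with median centring, 81 with no replicate block, and 0 to 0 leaving out each array. The members called, 0, became 1, Pdlim5, with cyclic loess and with no replicate block, for a gene whose choice used its CPEB1 values. Genes called between IgG and input numbered 3, against 9 with cyclic loess, 8 with quantile normalization and 0 to 0 leaving out each array. Those called between CPEB4 and IgG numbered 269, against 135 with the 75th percentile filter, 9 with quantile normalization and 0 to 274 leaving out each array; leaving out either array of CPEB4, IgG or input gave 0. Those between CPEB1 and IgG stayed at 0 under every alternative run. Over the 4 fractions together, 7 cases of a member (in 5 genes) were past the HD and WT threshold, against 2, both Sprr2a1, at 3-fold (8.66% of all genes' cases) and 13 at 1.5-fold (31.8%). Members highest on both IgG arrays numbered 5, against 4 with probe sets averaged and 6 with quantile normalization.

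Signs turned as follows. CPEB1 minus CPEB4 of Sprr2a1 was 0.22 after quantile normalization and -2.30 to 1.94 leaving out each array. That of Cenpb was -0.053 to 0.46 and that of Trim44 -0.012 to 0.45 leaving out each array, and Trim44 had -0.20 with the mean of its probe sets. That of Sec14l1 was 0.0076 with cyclic loess, 0.34 with quantile normalization and -0.45 to 0.058 leaving out each array. CPEB4 minus IgG of Pdlim5 was -0.66 with quantile normalization and -0.21 to 0.99 leaving out each array. CPEB1 minus IgG of Dus3l, -1.65, was 0.39 with the mean of its probe sets. The causes were not tested. Dppa2 was not tested with the mean of its probe sets, which lies under the filter. No paired analysis by replicate number was possible because the labels carry no such numbers; the genotype pool served as the block. With 1 array per fraction and pool, differences within a group have no measured spread.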
